A study of Homo sapiens with 60 samples.

Results

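The 33 genes described here encode the machinery of the G2 to M transition and of mitosis: cyclins and CDK1, the mitotic kinases, the spindle checkpoint and its target, kinetochore proteins, spindle motors, and chromosome proteins. They were taken by symbol, and the rule uses no measured value, though the set was chosen with earlier results of these data known. Each symbol matched 1 row of the 60675 genes in the table, and all 33 passed the filter on low counts that left 16763 genes. Expression was measured by RNA-seq in HT29, a human colorectal adenocarcinoma cell line, 24 h after an herbal extract or vehicle was added. Values are CPM, the count of a gene over the total of its library in standard units, scaled between libraries by TMM (trimmed mean of M values).

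Entry into mitosis depends on CDK1 bound to cyclin A or cyclin B, which CDC25 phosphatases switch on. Aurora and polo-like kinases then build the spindle, and the spindle checkpoint holds back the anaphase-promoting complex until every kinetochore is attached. Most of these genes are transcribed late in the cell cycle: a DREAM or MMB complex binds the CHR element of their promoters, NF-Y binds CCAAT boxes, and FOXM1 and MYBL2 add to their activity. Their summed RNA therefore serves widely as a measure of proliferation in epithelial tumours. In bulk RNA, fewer cells in G2 or mitosis and less of each RNA per cell cannot be told apart.

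There were 25 groups and 60 libraries. Vehicle (DMSO, 0.1% in the sample labels and 2% in the series text) had n = 3. The extracts were water extracts of 2 multi-herb formulas, Bojungikgi-tang with 2 libraries at each dose and Sayeok-tang with 3, and ethanol extracts of 4 single herbs with 3 libraries at each dose. The herbs were Scutellariae Radix, Pinelliae Tuber, and ginger in the dried (Zingiberis Rhizoma) and the fresh form (Zingiberis Rhizoma Recens). All 6 were given at 500, 100 and 20 µg/mL, called high, medium and low. Ethanol extracts of Coptidis Rhizoma (320, 64 and 12.8 µg/mL) and Zizyphi Fructus (500, 100 and 20 µg/mL) had 1 library per dose. All groups are the same cell line, nothing in the labels says that replicates were separate cultures, and p-values therefore measure only the spread between these libraries.

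Libraries held 18.02 to 35.82 M counts (median 24.46 M, M being the usual prefix mega), and the lowest count of any of the 33 genes in any library was 283 (CDC25C). The epithelial markers EPCAM, KRT8 and KRT18 were high in every library. CDX1 was low at 0.275 to 2.16 CPM, as were CDX2 at 3.51 to 10.6 CPM and CEACAM5 at 1.61 to 12.5 CPM. The leukocyte genes PTPRC and CD3E did not pass 0.0913 CPM. In share of mitochondrial or of ribosomal protein RNA, 4 of the 60 libraries differ from the median library by more than 10 times the median absolute deviation. They are vehicle replicate 1 (7.21% ribosomal protein), Pinelliae high-dose replicate 2 (14.3% mitochondrial), Scutellariae low-dose replicate 3 (9.36% ribosomal protein) and the Coptidis low-dose library (15.2% mitochondrial). The counts of genes called are given with and without them. The sample codes set vehicle apart from every extract, and each comparison with vehicle is thus also a comparison of code sets: extract and code set cannot be told apart there.

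Promoter letters that many, but not all, of these genes hold are shown first, since the rule did not use them. RefSeq promoters (GRCh38.p14, 250 bases before to 50 after the start) were matched for 28 of the 33 genes, all but AURKA, BIRC5, TPX2, TTK and UBE2C. The letters TTTGAA were searched for the CHR element, and a variant form of that element, TTCGAA, was counted with them. No other form of the element was searched, so a promoter without these letters may still hold one. On either strand, these CHR letters stood in 19 of the 28 (67.9%) against 16.6% of all 27305 promoters of that length. They lay within 50 bases of the start in 15 (53.6% against 5.1%). CCAAT stood in 21 (75.0% against 35.7%), 2 or more copies in 13 (46.4% against 11.3%), and both kinds of letters in 15 (53.6% against 6.6%). CDC25C, CENPE and KIF2C held neither in the window used. For each gene the first window listed was used, and other starts, where a gene has them, were not searched. The 150 bases before the start follow 5′ to 3′ for 5 genes on which results turn, with both motifs in capitals. A CCAAT box lying on the opposite strand appears here as its reverse complement, ATTGG. Capital runs longer than 6 are motifs that overlap or touch.
CCNB2, chr15:59104996-59105145, plus strand: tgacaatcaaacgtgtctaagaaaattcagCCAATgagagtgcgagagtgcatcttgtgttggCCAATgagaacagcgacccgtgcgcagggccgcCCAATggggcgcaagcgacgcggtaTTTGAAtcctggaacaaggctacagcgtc
PLK1, chr16:23678739-23678888, plus strand: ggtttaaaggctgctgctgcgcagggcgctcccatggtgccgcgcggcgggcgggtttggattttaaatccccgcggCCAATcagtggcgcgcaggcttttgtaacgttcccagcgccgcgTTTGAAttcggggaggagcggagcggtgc
CCNA2, chr4:121823884-121824033, minus strand: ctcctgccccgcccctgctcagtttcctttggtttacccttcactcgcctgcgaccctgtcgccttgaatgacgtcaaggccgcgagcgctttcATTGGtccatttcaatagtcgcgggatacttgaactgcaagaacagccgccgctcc
MKI67, chr10:128126424-128126573, minus strand: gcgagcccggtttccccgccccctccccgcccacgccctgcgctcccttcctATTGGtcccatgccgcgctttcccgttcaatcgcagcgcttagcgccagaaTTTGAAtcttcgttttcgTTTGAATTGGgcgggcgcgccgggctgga
HMMR, chr5:163460482-163460631, plus strand: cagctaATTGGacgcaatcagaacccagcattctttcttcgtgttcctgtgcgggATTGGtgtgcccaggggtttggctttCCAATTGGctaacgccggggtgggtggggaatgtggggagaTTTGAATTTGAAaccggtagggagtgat
CCNB2 has its CHR letters 29 bases before the start and CCAAT at 54, 87 and 120 bases before it, and PLK1 has 1 of each, at 29 and 73 bases. The CCNA2 window holds CCAAT 56 bases before the start and none of the CHR letters searched. A match describes these letters only.

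The first question was whether any extract moves the mitotic genes away from vehicle. In 18 comparisons (6 extracts at 3 doses, edgeR's quasi-likelihood test, Benjamini-Hochberg adjusted p under 0.05 over 16763 genes) the genes called were mostly lower with extract, with log2 fold changes of -0.43 to -0.16. AURKA, the kinase that matures centrosomes, was called lower in 12 of the 18. BIRC5, which encodes survivin of the chromosomal passenger complex, was called in 10, and CCNB2, cyclin B2, in 8. CDC25C and KIF2C were called lower in 5 each, PLK1 and CCNB1 in 4 each, CDC20 in 2, and AURKB, NDC80, KIF20A and PTTG1 in 1 each. CCNA2 and BUB1B were called higher in 1 each, with Scutellariae at the high dose. The other 19 genes were called in none. All 18 comparisons use the same 3 vehicle libraries and are not independent of each other.

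**Figure D1:**
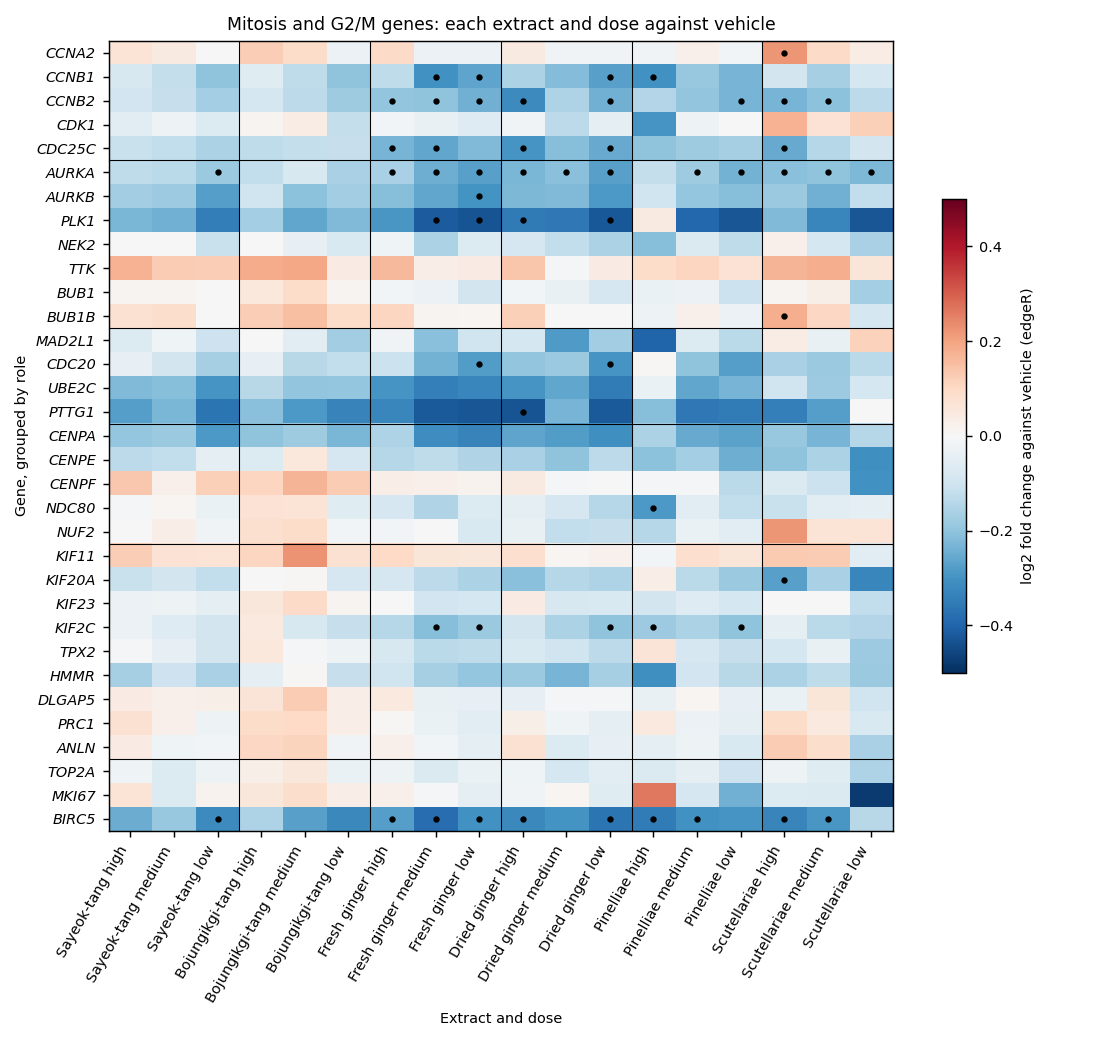
log2 fold change of each of the 33 genes (rows, grouped by role) against vehicle for 6 extracts at 3 doses (columns), with a black dot where the edgeR adjusted p is under 0.05. Blue is lower than vehicle; AURKA carries dots in 12 columns, BIRC5 in 10 and CCNB2 in 8, and the 2 dots on red cells are CCNA2 and BUB1B with Scutellariae at the high dose.

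By extract, the counts of genes that fell are given with the share of all genes that fell. Fresh ginger had 4 of 33 lower at the high dose (3.36% of all genes), 7 at the medium dose (1.34%) and 8 at the low dose (1.75%). Dried ginger had 6 at the high dose (6.33%), 1 at the medium dose (0.65%) and 8 at the low dose (1.23%). For Pinelliae these were 4 (2.89%), 2 (1.06%) and 3 (0.304%). Scutellariae at the high dose had 5 lower (12.1%) and 2 higher (11.4%), and the 21.2% of members called in either direction is near the 23.6% of all genes. It had 3 lower at the medium dose (4.64%) and 1 at the low dose (0.173%). Sayeok-tang had 2 lower at the low dose (1.72%). It had 0 of 33 in either direction at the high and medium dose (2.85% and 0.793% of all genes), and Bojungikgi-tang, with n = 2, had 0 at each dose (0.626%, 1.49% and 0.424%). Where the edgeR count was 0, an unadjusted p under 0.05 was seen for 4 and 5 genes with Sayeok-tang at the high and medium dose and for 2, 7 and 7 with Bojungikgi-tang from high to low. DESeq2 called 1, 0, 0, 0 and 1 of them. Replicate 3 of dried ginger at the medium dose, not among the libraries that stand apart, differed from replicates 1 and 2 in some genes. It had MAD2L1 at 72.4 CPM beside 120 and 117, CDK1 at 88.3 beside 118 and 112, and PTTG1 at 110 beside 83.2 and 84.7. Leaving out replicate 3 gave 3 genes called for that dose in place of 1, and leaving out replicate 1 or replicate 2 gave 0.

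AURKA (chromosome 20, 56369389 to 56392337, minus strand, GRCh38) had 176, 171 and 179 CPM in the vehicle libraries. With dried ginger at the low dose it had 146, 146 and 144 CPM, a log2 fold change of -0.27 ± 0.05 (SE, edgeR adjusted p = 0.00165). Fresh ginger at the low dose gave 145, 142 and 149 CPM (-0.27 ± 0.05, adjusted p by edgeR 0.00154). Neither range overlaps that of vehicle. Across all 57 extract libraries, 56 had less AURKA than the lowest vehicle library. The exception was Pinelliae high-dose replicate 2, at 177 CPM, which stands apart in mitochondrial RNA, while its companions had 151 and 157.

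BIRC5 (chromosome 17, 78214186 to 78225636, plus strand) had 129.9, 109 and 105 CPM with vehicle, the first being the vehicle library that stands apart. In dried ginger at the low dose it had 90.0, 87.3 and 90.1 CPM (-0.36 ± 0.08, edgeR adjusted p = 0.0149), and 55 of the 57 extract libraries lay below every vehicle library. Scutellariae low-dose replicate 3, which also stands apart, had 129.6 CPM beside 97.1 and 86.8. BIRC5 was thus high in both libraries that stand apart in ribosomal protein share. The Coptidis high-dose library, just under the limit with 6.70% ribosomal protein, had the lowest BIRC5 of all libraries, at 49.7 CPM. The part of that share in the result was not tested. BIRC5 was called lower in 15 of the 18 comparisons without the libraries that stand apart, with a median log2 fold change of -0.20 in place of -0.30.

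CCNB2 (chromosome 15, 59105078 to 59125045, plus strand) had 174, 161 and 182 CPM with vehicle and 136, 133 and 145 with dried ginger at the high dose. That was the smallest adjusted p of any of the 33 genes in a comparison with vehicle (-0.32 ± 0.06, edgeR adjusted p = 8.9e-05), and the groups did not overlap. At the low dose of dried ginger it had 146, 149 and 142 CPM (-0.24 ± 0.06, edgeR adjusted p = 0.0201). Its partner in CDK1 activation, CCNB1 (cyclin B1), had 202, 192 and 195 CPM with vehicle and 152, 167 and 158 with fresh ginger at the medium dose (-0.30 ± 0.08, edgeR adjusted p = 0.0335). Both B cyclins were lower in most extract libraries: 56 of 57 lay below the vehicle range for CCNB1 and 48 for CCNB2. CDC25C, the phosphatase that activates CDK1, had 18.9, 22.1 and 20.5 CPM with vehicle and 16.3, 15.9 and 18.1 with dried ginger at the high dose (-0.30 ± 0.07, edgeR adjusted p = 0.00184).

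PLK1, the polo-like kinase that drives mitotic entry, had 195, 182 and 186 CPM with vehicle and 132 to 145 CPM in the 3 fresh ginger low-dose libraries (141, 145 and 132; -0.43 ± 0.12, edgeR adjusted p = 0.036). In 56 of 57 extract libraries it was below every vehicle library. The remaining one was Pinelliae high-dose replicate 2, with 286 CPM beside 143 and 152 in its group. PLK1 was called lower in 4 of 18 comparisons with all libraries and in 16 without those that stand apart. KIF2C, a kinesin that takes microtubules apart, had 83.6, 82.4 and 81.1 CPM with vehicle and 70.8, 71.9 and 72.0 with Pinelliae at the low dose (-0.20 ± 0.05, edgeR adjusted p = 0.0304), and 55 of 57 extract libraries lay below its vehicle range. CDC20, the activator of the anaphase-promoting complex, had 182, 175 and 166 CPM with vehicle and 145, 138 and 143 with dried ginger at the low dose (-0.29 ± 0.08, edgeR adjusted p = 0.0377).

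**Figure D2:**
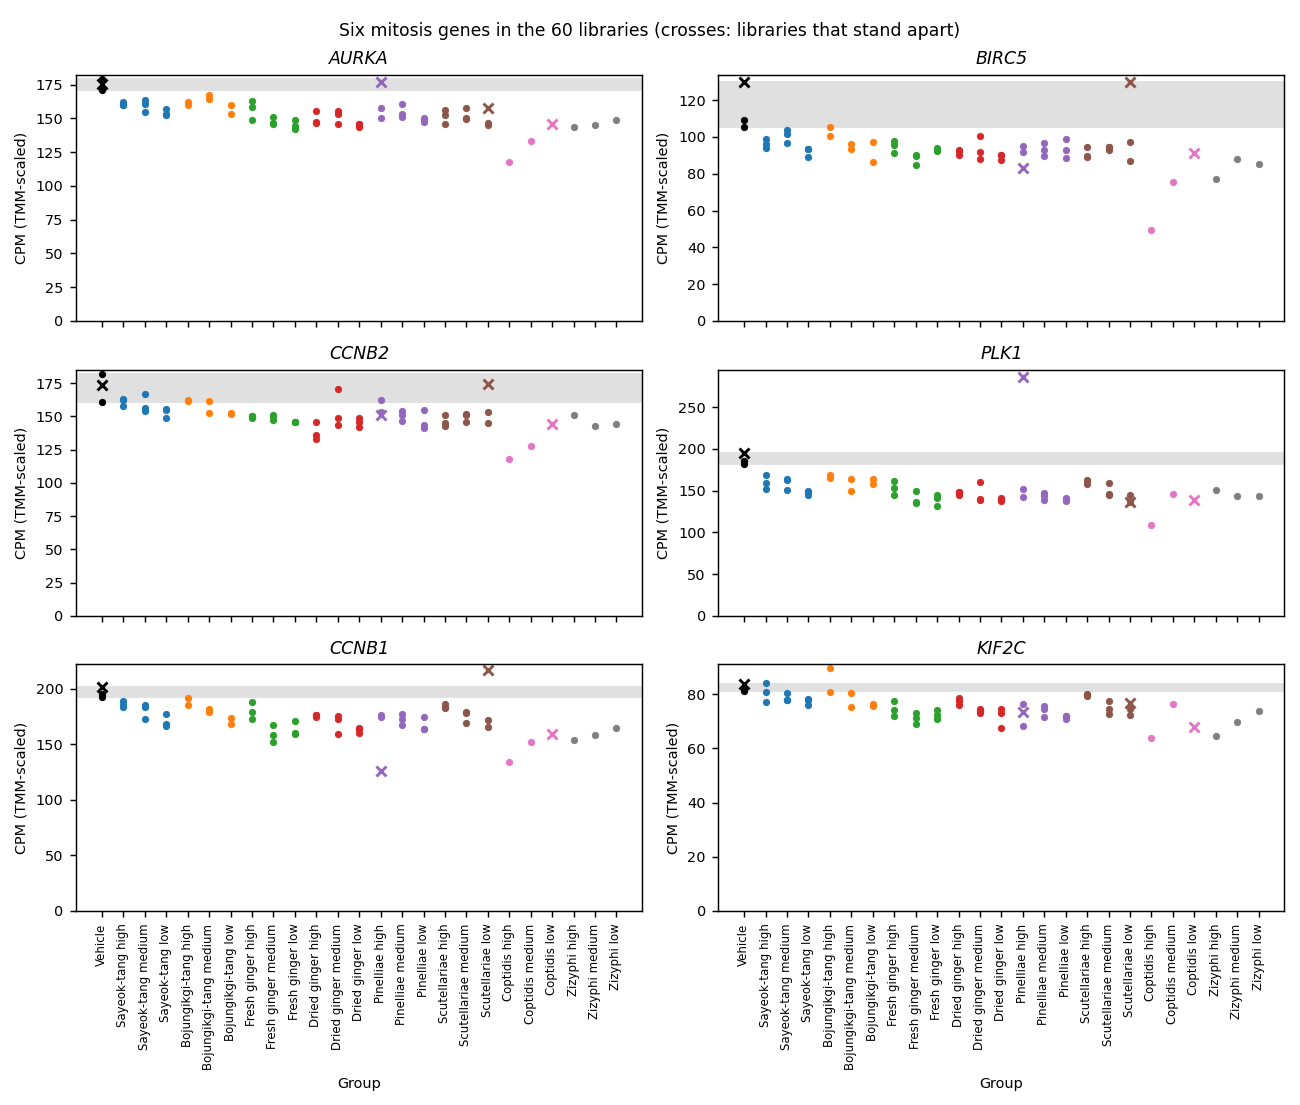
TMM-scaled CPM of 6 genes (panels, linear axes from 0) in each of the 60 libraries, by group (horizontal axis); the grey band is the range of the 3 vehicle libraries, and crosses are the 4 libraries that stand apart. AURKA, CCNB1 and PLK1 lie below the band in 56 of 57 extract libraries, and the Pinelliae high-dose cross at 286 CPM is the exception for PLK1.

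Of the 33 genes, 8 had at least 51 of the 57 extract libraries below the vehicle range, against 5.66% of all genes: CCNB1, AURKA, PLK1, PTTG1, CENPA, KIF2C, HMMR and BIRC5. PTTG1 (securin, which holds back the separation of sister chromatids until anaphase), CENPA (the centromeric histone) and HMMR (a spindle protein) were so in 53, 54 and 52 libraries, though PTTG1 was called in 1 comparison only and the others in none. None of the 33 had as many libraries above the vehicle range, against 5.88% of all genes. On the opposite side stood TTK, the checkpoint kinase, with 30 libraries above and 3 below, and KIF11, the motor that separates spindle poles, with 39 above and 4 below. Both missed the threshold in each comparison with all libraries (log2 fold changes of -0.01 to 0.19 for TTK and -0.06 to 0.22 for KIF11). The chromosome genes MKI67 (the Ki-67 antigen) and TOP2A (topoisomerase II alpha) were not called either. The MKI67 vehicle libraries had 578, 770.2 and 781 CPM, with the one that stands apart lowest, and that range held 53 of the 57 extract libraries. MKI67, PRC1, ANLN, DLGAP5, CENPF and BUB1 lay within the vehicle range in 40 to 53 libraries each.

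Leaving out the libraries that stand apart (1 of them vehicle, which left n = 2 there) raised these counts, and the share of all genes called in either direction with them. Fresh ginger then had 6, 11 and 14 genes lower from high to low dose, beside 14.6%, 9.98% and 12.1% of all genes, and dried ginger 10, 9 and 12 (21.0%, 4.66% and 9.55%). Pinelliae had 5, 11 and 12 (9.27%, 9.36% and 4.98%). At its high dose BIRC5 and KIF2C were called both ways, CCNB1 (-0.30, then -0.13, edgeR adjusted p = 0.0709) and NDC80 (-0.29, then -0.11, edgeR adjusted p = 0.25) only with all libraries, and AURKA (-0.18), CDC25C (-0.26) and PLK1 (-0.31) only without those that stand apart. Scutellariae had 12 lower with 5 higher at the high dose (31.0%), then 11 (18.1%) and 10 lower (3.48%). Sayeok-tang had 2, 1 and 9 lower (8.19%, 3.32% and 10.3%). Bojungikgi-tang had 0 (2.47%), 2 lower and 1 higher (9.57%) and 3 lower (2.66%). KIF20A was then called lower in 13 of the 18 comparisons, TPX2 in 8 and MKI67 in 5. Leaving out 1 library at a time mostly lowered the counts. At the low dose of fresh and of dried ginger 1 gene each was called without vehicle replicate 1 in place of 8 and 8, 3 each without vehicle replicate 2, 1 or 2 without any 1 of the ginger libraries, and 9 and 7 without vehicle replicate 3. Without vehicle replicate 1 dried ginger at the high dose had 3 in place of 6 and Pinelliae 0 at each dose. With only the libraries compared in the fit, all 6 calls of dried ginger at the high dose were kept, and 6 of 8 at its low dose, 5 of 8 of fresh ginger low, 1 of 7 of fresh ginger medium, 0 of 4 of fresh ginger high, 0 of 4 of Pinelliae high and 6 of 7 of Scutellariae high. Across the low-dose groups of the 4 ethanol extracts with replicates, 28 to 30 of 33 fold changes were below 0 for the gingers and Scutellariae and 31 for Pinelliae, where 49.8% to 50.6% of all genes were. Over all 18 comparisons, with all libraries, the count ran from 15 (Bojungikgi-tang medium) to 31, where 47.0% to 53.2% of all genes were below 0. Dried ginger at the medium dose had 30, and Sayeok-tang and Bojungikgi-tang at the low dose had 26 and 24.

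The comparison of high with low dose within an extract does not involve vehicle. In Scutellariae 5 of 33 genes rose at the high dose and 0 fell, a share of 15.2%. Of all genes 22.5% were called in either direction and 10.7% rose. BUB1B, the checkpoint protein BubR1, had 118, 123 and 115 CPM at the high dose and 106, 106 and 83.8 at the low dose (log2 fold change 0.27 ± 0.06, edgeR adjusted p = 0.00112). Its range at the high dose lies above that at the low dose, where the third library, which stands apart, is the lowest. BUB1B was still called without the libraries that stand apart (0.16, edgeR adjusted p = 0.00501). ANLN, anillin of the cleavage furrow, had 200.1, 209.9 and 213 CPM against 184, 188 and 137 (0.29 ± 0.07, edgeR adjusted p = 0.00189), and 0.15 without them (edgeR adjusted p = 0.0107).

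PRC1, which bundles microtubules of the central spindle, had 231, 232 and 229 CPM at the high and 208, 218 and 189.9 at the low dose of Scutellariae (0.17 ± 0.04, edgeR adjusted p = 0.00361). CCNA2, cyclin A2, had 150.2, 163 and 171 against 137, 133 and 157 (0.18 ± 0.06, edgeR adjusted p = 0.0189). Here the library that stands apart was the highest of its group, and the difference was 0.25 without the libraries that stand apart (edgeR adjusted p = 2.8e-05). BUB1, the checkpoint kinase, had 96.1, 102 and 104 CPM against 92.2, 97.5 and 76.1 (0.18 ± 0.06, edgeR adjusted p = 0.0203), and it was not called without them (0.08, edgeR adjusted p = 0.241). In the fit without the libraries that stand apart, 10 genes rose with dose (20.5% of all genes called in either direction): CCNA2, BUB1B, ANLN and PRC1 again, and CCNB1, CDK1, NEK2, NUF2, PLK1 and UBE2C. CDK1 then differed by 0.22 and NEK2, a centrosome kinase, by 0.25 on the log2 scale. Leaving out single libraries gave 3 genes without high-dose replicate 2, without high-dose replicate 3 or without low-dose replicate 3, and 10 and 11 without low-dose replicates 1 and 2. With only the 6 libraries compared in the fit, 0 of the 5 calls were kept (edgeR adjusted p = 0.329 to 0.464).

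In Pinelliae 3 genes rose at the high dose and 0 fell (9.09% beside 1.78% of all genes), and the second high-dose library, which stands apart, holds the highest value of each. PLK1 had 143, 286 and 152 CPM against 138, 141 and 139.8 at the low dose (0.47 ± 0.12, edgeR adjusted p = 0.0328). CDC20 had 153, 209.9 and 162 against 145, 145 and 141 (0.28 ± 0.08, edgeR adjusted p = 0.0458). TPX2, which activates AURKA on the spindle, had 302, 357 and 303 against 277, 282 and 292 (0.18 ± 0.05, edgeR adjusted p = 0.0396). Without the libraries that stand apart the 3 differences were 0.07, 0.13 and 0.09, with edgeR adjusted p of 0.727, 0.308 and 0.294, and 0 of the 33 genes were called (0.779% of all genes). Leaving out high-dose replicate 2 or any 1 low-dose library also gave 0, and leaving out high-dose replicates 1 and 3 gave 9 and 6. The fit of the 6 libraries compared kept 0 of the 3 calls (edgeR adjusted p = 0.833 for each).

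That Pinelliae library and the Scutellariae low-dose library that stands apart hold the extremes of many of these genes. In the former, PLK1 (286 CPM), MKI67 (1164), CDC20 (209.9), TPX2 (357) and KIF20A (71.6) had their highest values among all 60 libraries, and CDK1 (58.0), MAD2L1 (47.8), CCNB1 (126), HMMR (37.0), NDC80 (28.4), NUF2 (15.0) and NEK2 (22.3) their lowest. In the latter, MKI67 (219) and CENPF (137) had their lowest values, and CDK1 (154), MAD2L1 (180.2), PTTG1 (160.2), CCNB1 (217), UBE2C (149) and CENPA (23.7) their highest. CDK1, MAD2L1 and CCNB1 are thus low in the first and high in the second, and MKI67 is the reverse. The mitochondrial share was 14.3% in the Pinelliae library and 6.80% in the Scutellariae library, and the ribosomal protein share 5.03% and 9.36%. The part of these shares in the values was not tested.

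**Figure D3:**
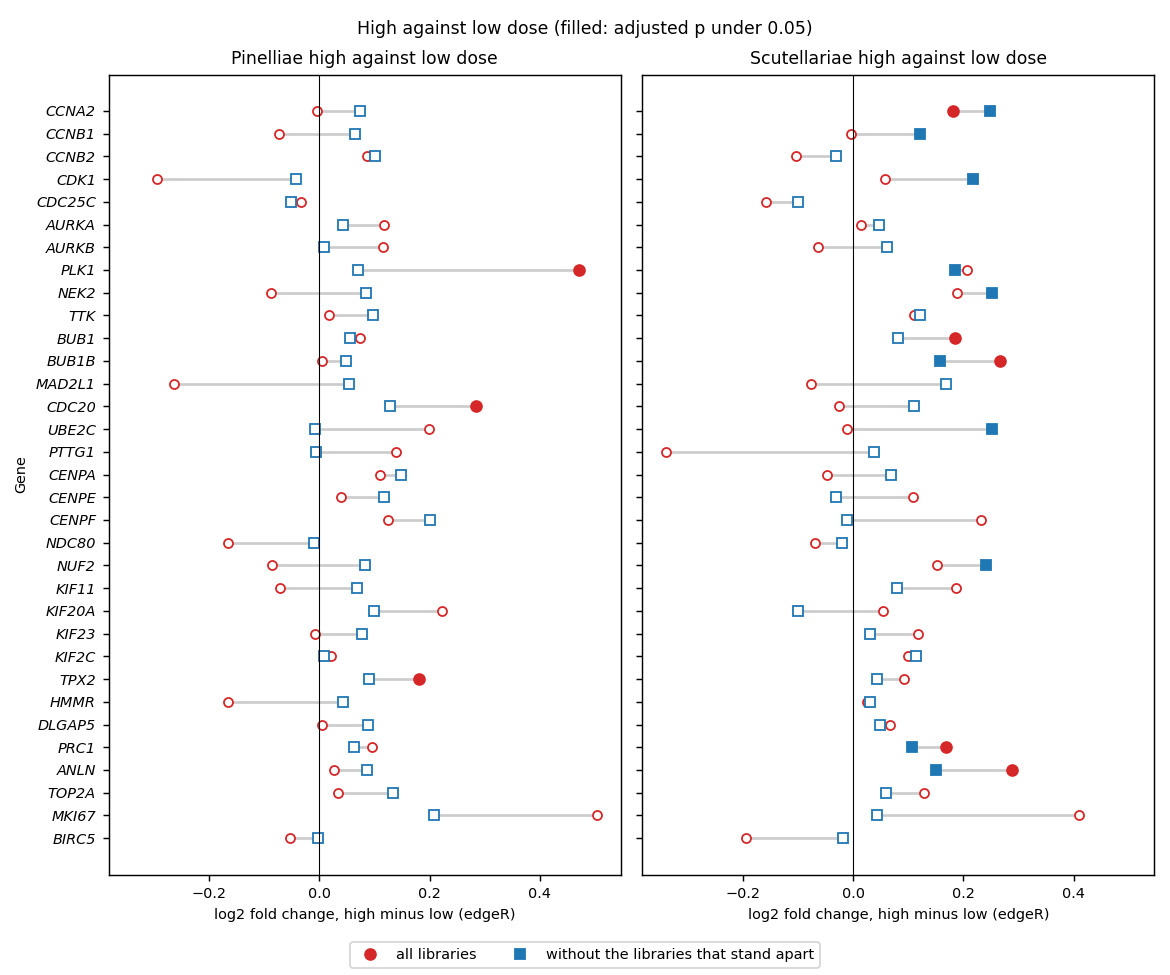
log2 fold change of the 33 genes (rows) at the high against the low dose of Pinelliae (left) and Scutellariae (right), with all libraries (red circles) and without those that stand apart (blue squares); filled symbols have an edgeR adjusted p under 0.05. PLK1 in Pinelliae moves from 0.47 to 0.07, and in Scutellariae 5 filled circles become 10 filled squares, all above 0.

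In the other 4 extracts 0 of 33 genes were called between the high and low dose by edgeR (all genes 0.382% in Sayeok-tang, 0.0656% in Bojungikgi-tang, 0.489% in fresh ginger and 4.34% in dried ginger), with 1, 2, 3 and 2 genes at an unadjusted p under 0.05 and 0 by DESeq2 in each. The fold changes were small and mostly positive: 31 of 33 were above 0 in Sayeok-tang, Bojungikgi-tang and fresh ginger and 26 in dried ginger, with medians of 0.06 to 0.07, where 49.5% to 49.9% of all genes were below 0. No test was made of this count. In the fit without the libraries that stand apart CCNB1 (0.14) and CDC20 (0.17) rose in fresh ginger (2.58% of all genes called) and BUB1B (0.11) and KIF23 (0.12) in dried ginger (10.8%).

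Extracts were also compared with each other at the high dose, 500 µg/mL. Sayeok-tang against Bojungikgi-tang gave 0 of 33 genes (0.00597% of all genes, 0 at an unadjusted p under 0.05, 0 by DESeq2), as did fresh against dried ginger (2.26%, 1 gene at an unadjusted p under 0.05, 0 by DESeq2). Fold changes spanned -0.11 to 0.03 in the former and -0.05 to 0.13 in the latter on the log2 scale. Scutellariae against Pinelliae gave 9 genes, 7 higher and 2 lower with Scutellariae, a share of 27.3% that is near the 22.8% of all genes. None of the 9 calls was kept with only the 6 libraries compared in the fit (0 genes, edgeR adjusted p = 0.262 to 0.51).

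CDK1 had 133, 128 and 132 CPM with Scutellariae and 114, 58.0 and 113 with Pinelliae (0.47 ± 0.12, edgeR adjusted p = 0.0047). NUF2, of the NDC80 complex that grips microtubules, had 25.7, 25.2 and 26.6 CPM against 22.2, 15.0 and 23.1 (0.36 ± 0.10, edgeR adjusted p = 0.00458). In both the Pinelliae library that stands apart was the lowest, and the groups did not overlap. KIF20A, a kinesin of cytokinesis, was lower with Scutellariae: 48.8, 51.6 and 49.6 CPM against 57.7, 71.6 and 55.9 (-0.30 ± 0.08, edgeR adjusted p = 0.00431).

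CCNA2 had 150.2, 163 and 171 CPM with Scutellariae and 145, 121 and 145 with Pinelliae (0.24 ± 0.06, edgeR adjusted p = 0.00195), and BUB1B 118, 123 and 115 against 109.6, 95.9 and 103 (0.20 ± 0.06, edgeR adjusted p = 0.0114). KIF2C had 80.1, 79.4 and 79.8 CPM against 68.3, 73.4 and 76.2, a difference of 0.13. CCNB1 had 186, 183 and 183 against 174, 126 and 177 (0.21). NEK2 had 35.8, 36.7 and 33.9 against 35.5, 22.3 and 32.2 (0.24), and its groups overlapped. TPX2 was lower with Scutellariae, at 283, 294 and 289.9 CPM against 302, 357 and 303 (-0.15). Of the 9, 5 were called without the libraries that stand apart, CDK1 (0.21), CCNA2 (0.15), BUB1B (0.15), KIF2C (0.14) and KIF20A (-0.19), beside 19.3% of all genes. NUF2 (0.19), CCNB1 (0.07), NEK2 (0.06) and TPX2 (-0.07) were not, with edgeR adjusted p of 0.0766, 0.351, 0.618 and 0.146. Leaving out Pinelliae high-dose replicate 2 alone left 2 genes called, Scutellariae high-dose replicate 1 or 2 left 5, and without Pinelliae high-dose replicate 1 there were 16.

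Whether the change from low to high dose differs between extracts was tested as an interaction. BUB1B was the 1 gene of 33 called for Scutellariae against Pinelliae (0.26 ± 0.09, edgeR adjusted p = 0.0434, 3.03% of the 33 beside 9.58% of all genes). Without the libraries that stand apart it was 0.11 with an edgeR adjusted p of 0.323, and 0 genes were called (9.00% of all genes). The interaction of the ginger extracts gave 0 genes (0.644% of all genes), as did that of the formulas (0%), with 0 at an unadjusted p under 0.05 in each and 0 by DESeq2.

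Coptidis Rhizoma, with 1 library per dose and so no test, had the lowest values of most of these genes. At 320 µg/mL 21 of the 33 were more than 0.5 below the vehicle mean on a log2 scale (CPM + 0.5) and 0 were above it by as much, against 20.4% of all genes lower and 18.9% higher. The median of the 33 was -0.58, that of all genes -0.01. In 32 of 33 the library lay below the range of the 3 vehicle libraries. The other 5 libraries of its code set did so in 25 to 28 of the 33, and the share of all genes was not computed. The 320 µg/mL library was the lowest of all 60 libraries in 22 of the 33, against 20.1% of all genes. It was below the other 5 libraries of its code set in 29, against 37.1%. This library did not count as standing apart, but it lay close under the limit of 10 median absolute deviations. Its mitochondrial share was 3.44%, the lowest of all 60 libraries (9.82 deviations), and its ribosomal protein share 6.70% (9.27). The part of these shares in the values was not tested.

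BIRC5 had the largest difference, at 49.7 CPM (95% counting interval 47.0 to 52.4, exact Poisson, which covers counting error only) beside 105 to 129.9 with vehicle, a log2 ratio of -1.20. At 64 and 12.8 µg/mL it had 75.5 and 91.4 CPM, so that the values follow the order of dose in these 3 libraries. MKI67 had 317 CPM at 320 µg/mL (310.5 to 324), then 650.2 and 623, beside 578 to 781 with vehicle, a ratio of -1.15 at the high dose. AURKB, the kinase of the passenger complex that holds BIRC5, had 23.6, 38.6 and 41.2 CPM from high to low dose beside 43.5 to 55.3 with vehicle (-1.05 at the high dose). All 3 lay below every vehicle library at the high dose, and MKI67 was inside the vehicle range at the lower doses.

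PTTG1 (-1.01), MAD2L1 (-0.96), CENPE (-0.96), DLGAP5 (-0.86) and KIF20A (-0.85) came next at 320 µg/mL. CCNA2 had 79.4, 109 and 133 CPM from high to low dose beside 136 to 143 with vehicle, again in the order of dose. By role, 4 of 5 genes for cyclins, CDK1 and its phosphatase passed 0.5, 5 of 7 mitotic kinases, 3 of 4 checkpoint and anaphase genes, 2 of 5 kinetochore genes, 5 of 9 motor and spindle genes and 2 of 3 chromosome and passenger genes. The kinetochore genes NDC80 and NUF2 lay at -0.32 and -0.32.

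Some genes stayed near vehicle in the same library. HMMR had 68.4 CPM (65.3 to 71.7) beside 64.7 to 68.9, CENPA 21.3 beside 21.9 to 22.8, and NEK2 33.1 beside 33.5 to 36.2. The HMMR promoter shown above has both CHR and CCAAT letters, as do those of CCNB2 and MKI67, which were 0.55 and 1.15 below vehicle on the log2 scale. At 64 µg/mL 2 genes passed 0.5, BIRC5 (-0.59) and MAD2L1 (-0.50), against 5.57% of all genes lower. At 12.8 µg/mL 1 did, PTTG1 (-0.50), against 2.76%, in a library that stands apart.

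Zizyphi Fructus, of the same code set and also with 1 library per dose, had BIRC5 past 0.5 at 500 µg/mL (77.1 CPM, -0.56; 3.67% of all genes lower) and 0 genes at 100 (1.81%) and 20 µg/mL (2.07%). The medians of the 33 were -0.17, -0.18 and -0.16 from high to low dose, and 30 to 32 genes were below 0 at each. Coptidis at 64 and 12.8 µg/mL had medians of -0.13 and -0.21. Doses of the 2 extracts differ and are not compared.

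**Figure D4:**
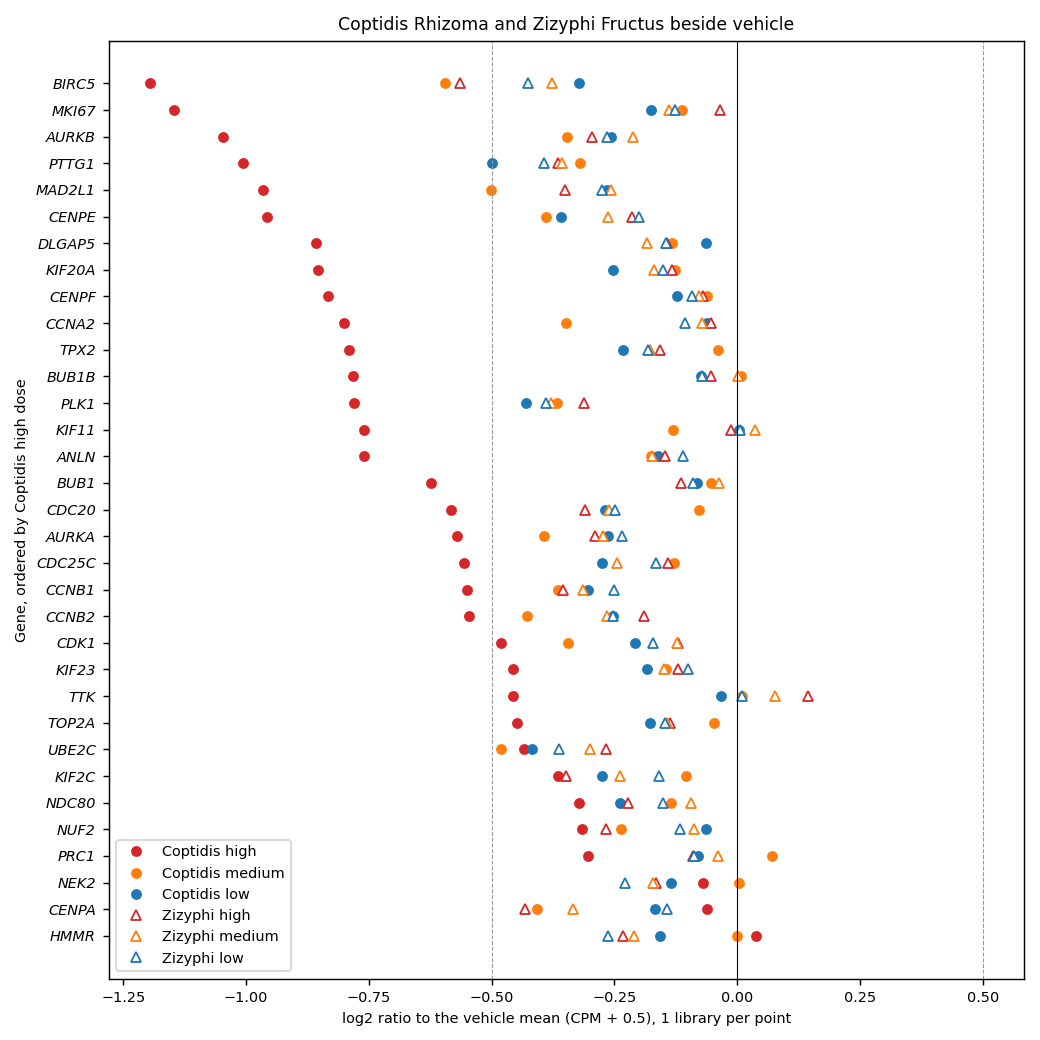
log2 ratio of each gene (rows, ordered by the Coptidis high dose) to the vehicle mean, on CPM + 0.5, for Coptidis (filled circles) and Zizyphi (open triangles) at 3 doses, 1 library per point; dashed lines mark 0.5 either way. The red circles of Coptidis at 320 µg/mL run from -1.20 (BIRC5) to 0.04 (HMMR), and 21 lie beyond the dashed line.

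Other genes of the pathway were taken from lists that hold none of the 33. In the same Coptidis library 20.4% of all genes were more than 0.5 lower and 18.9% more than 0.5 higher, and the counts below stand beside these shares. All 25 DNA replication genes were lower by as much (median -1.37), with RRM2, the ribonucleotide reductase subunit, at 85.2 CPM beside a vehicle mean of 283. Of the checkpoint and kinetochore list 16 of 23 were lower (median -0.71), of condensation and cohesion 10 of 15 (-0.69) and of spindle and cytokinesis 13 of 21 (-0.76). The CDK1 entry switch had 5 of 13 lower (-0.39). The anaphase-promoting complex had 2 of 15 (-0.16), which is below the share of all genes. In each of these lists 0 were higher. The activators MYBL2 and FOXM1 had 73.0 and 134 CPM beside vehicle means of 214 and 209 (-1.54 and -0.64), and 5 of 14 regulators were lower and 1 higher. Of the 12 genes of the inhibitor list 5 were higher and 4 lower. That list also holds the polo-like kinases PLK2 (-0.77) and PLK3 (1.29), which are counted with the inhibitors here and below. CDKN1A, the CDK inhibitor p21, had 91.5 CPM beside a vehicle mean of 15.9 (2.49), and BTG2, an antiproliferative gene, had 8.55 beside 40.7 (-2.18).

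With Scutellariae, high against low dose, 36 of the 138 genes of these lists rose and 6 fell, so that 30.4% were called beside 22.5% of all genes, of which 10.7% rose. Of the CDK1 entry switch 4 of 13 rose and 0 fell, led by CDC25A (0.46 ± 0.07, edgeR adjusted p = 5.1e-06) and MASTL, the Greatwall kinase (0.41 ± 0.07, edgeR adjusted p = 8.26e-06). Checkpoint and kinetochore genes had 6 of 23 higher, condensation and cohesion 5 of 15, spindle and cytokinesis 6 of 21 and regulators 4 of 14, with 0 lower in each. DNA replication had 5 of 25 higher and 1 lower, and the anaphase-promoting complex 2 of 15 higher and 1 lower. Among the inhibitors 4 of 12 rose and 4 fell: CDKN1A had 29.9 ± 1.40 CPM (SD, n = 3) at the high and 16.5 ± 2.31 at the low dose, and BTG2 16.4 ± 2.16 and 37.4 ± 0.687 (log2 fold changes 0.87 and -1.19, edgeR adjusted p = 1.22e-10 and 2.18e-14). CDKN1A and CDC25A, an inhibitor and an activator of CDKs, thus both rose. Without the libraries that stand apart 37 of the 138 genes were called (26.8% beside 20.5% of all genes), and the counts of higher and lower were 5 and 0 for the entry switch, 4 and 0 for checkpoint and kinetochore, condensation and spindle alike, 3 and 1 for regulators, 7 and 1 for replication, 2 and 0 for the anaphase-promoting complex and 3 and 3 for inhibitors.

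In Pinelliae the same comparison had GTSE1 (0.29), FOXM1 (0.34), MYBL2 (0.40) and KIF18B (0.37) called higher, 4 of the 138 (2.90% beside 1.78% of all genes), and 0 of the 138 genes of these lists were called without the libraries that stand apart. FOXM1 had 220.5 ± 58.7 CPM (SD, n = 3) at the high and 174 ± 0.194 at the low dose, a spread that comes with PLK1 and MKI67 in the second high-dose library. In Sayeok-tang, Bojungikgi-tang and fresh ginger 0 of the 138 genes were called between doses by edgeR with all libraries. Without those that stand apart 4, 1 and 7 were called, beside 2.16%, 0.246% and 2.58% of all genes. The Sayeok-tang genes were CDCA5, MCM2 and MCM4, which rose, and BTG2, which fell by 0.30, and the Bojungikgi-tang gene was CDC25A (0.27). In dried ginger 6 were called with all libraries (4.35% beside 4.34% of all genes): CDKN1A (0.38), CDCA5, CDC6 and MCM10 rose, and BTG2 (-0.85) and PLK2 (-0.17) fell. Without the libraries that stand apart 13 were called there (9.42% beside 10.8% of all genes).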

How the data were processed

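RNA was sequenced from 60 libraries of HT29 cells in 25 groups. The deposited values are expected counts per gene, which the authors made with RSEM 1.3.3 after STAR 2.7.3a, Trim Galore 0.6.5 and FastQC 0.11.9 on hg38, per the submitters' processing notes. The sources used here do not give the annotation release or the strand setting, and positions are those of GENCODE 29. Expected counts can share reads between similar genes, and 90.0% to 92.1% of the values were whole. They were rounded. The tables' 210 other columns were not used.

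Counts were fitted with edgeR 4.0.16 in R 4.3.3 (filterByExpr, TMM, glmQLFit with robust settings) over 54 libraries in 19 groups with 35 residual degrees of freedom, and p-values were adjusted by Benjamini-Hochberg over 16763 genes. CPM are scaled by TMM over all 60 libraries. The 6 single libraries were set beside the vehicle mean as log2(CPM + 0.5), with a cut of 0.5 and no test. Scripts were checked on simulated data. No pair of replicates agreed within sampling noise. Alternatives were DESeq2 1.42.0, its size factors in edgeR, no filter, replicate blocks, only the libraries compared, and leaving out libraries.

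The members and lists were chosen with earlier results of these data known. By a rule, library values are given in full for up to 14 genes. Those called in a comparison that does not involve vehicle come first, by their smallest adjusted p there, and those called in 6 or more comparisons with vehicle come after them. The first kind filled all 14 places: BUB1B, ANLN, CCNA2, PRC1, KIF20A, NUF2, CDK1, TPX2, BUB1, KIF2C, PLK1, CCNB1, NEK2 and CDC20. From each other list up to 4 genes called between doses could be named. AURKA, BIRC5 and CCNB2, which the limit of 14 left out, and CDC25C, MKI67 and the other genes named with values, those with Coptidis included, were chosen after their values were seen.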

Additional observations from a re-analysis of the deposited data

Results flagged for a closer look

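The change of BUB1B from low to high dose was greater in Scutellariae than in Pinelliae (0.26 ± 0.09 on the log2 scale, edgeR adjusted p = 0.0434), a difference between 2 extracts under the same contrast. BUB1B had 118, 123 and 115 CPM at the high and 106, 106 and 83.8 at the low dose of Scutellariae, and 109.6, 95.9 and 103 at the high and 98.1, 103.8 and 106 at the low dose of Pinelliae. It was the 1 gene of 33 called (3.03%), beside 9.58% of all genes. The lowest Scutellariae value and the lowest Pinelliae high-dose value both come from libraries that stand apart. Over 12 leave-outs of 1 library the difference was 0.16 to 0.32 (edgeR adjusted p = 0.0127 to 0.143) and was not called in 6: without Scutellariae high-dose replicates 1 and 2, Scutellariae low-dose replicate 3, Pinelliae high-dose replicate 2 and Pinelliae low-dose replicates 2 and 3. Without the libraries that stand apart it was 0.11 (edgeR adjusted p = 0.323), and it was also not called without the filter on low counts or with only the libraries compared in the fit (edgeR adjusted p = 0.649 in the latter).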

How the results depend on the processing

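Of the values of single genes under the alternatives, 977 stayed the same, 325 lost the call, 42 gained one, 17 moved and 9 reversed. For tested genes, the same means that direction and side of the threshold were kept. For Coptidis at 320 µg/mL, which had no test, it means a ratio changed by less than 1 SD of the vehicle libraries. The 17 that moved are Coptidis ratios past that limit. The 21 genes lower with Coptidis at 320 µg/mL stayed 21 under every alternative run. Counts of the 33 genes called moved by over 1.5 times as follows; the cause was not tested. Without the filter on low counts there were 1 and 5 for Sayeok-tang (high, low), 2 for Bojungikgi-tang low, 3 for dried ginger medium, 7 for Pinelliae high and 4 and 5 for Scutellariae (high, low) against vehicle, 5 for Pinelliae high against low dose, and 2 for the interaction of Scutellariae and Pinelliae. Without the libraries that stand apart there were, from high to low dose against vehicle, 2, 1 and 9 for Sayeok-tang, 3 and 3 for Bojungikgi-tang (medium, low), 11 and 14 for fresh ginger (medium, low), 10 and 9 for dried ginger (high, medium), 11 and 12 for Pinelliae (medium, low) and 17, 11 and 10 for Scutellariae. Between doses there were then 2 for fresh and 2 for dried ginger, 0 for Pinelliae and 10 for Scutellariae, with 5 for Scutellariae against Pinelliae and 0 for the interaction. DESeq2 gave 1 and 4 for Sayeok-tang (high, low), 1 for Bojungikgi-tang low, 12 for fresh ginger medium, 3 for dried ginger medium, 5 and 6 for Pinelliae (medium, low), 5 and 5 for Scutellariae (medium, low) and 3 for the interaction; for fresh ginger low, 12 was within that bound. With only the libraries compared in the fit there were 6 for Sayeok-tang low, 2 and 1 for fresh ginger (high, medium), 12 and 0 for dried ginger (high, medium), 0, 4 and 1 for Pinelliae and 12, 6 and 0 for Scutellariae against vehicle. Between doses that fit gave 1 for Sayeok-tang, 3 for Bojungikgi-tang, 1 for fresh and 3 for dried ginger, 0 for Pinelliae and 0 for Scutellariae, then 0 for Scutellariae against Pinelliae and 0 for the interaction. With Coptidis, 1 gene at 64 µg/mL passed 0.5 with a pseudocount of 1 or CPM of the total count, and at 12.8 µg/mL 0 and 2.

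Replicate numbers did not pair the samples: no comparison had every pair's correlation of deviations over 0.1, the highest set being 0.071 to 0.201 (Pinelliae low dose with vehicle). The fit with the replicate number as a block moved no count by over 1.5 times, and BUB1B stayed at 0.26 (edgeR adjusted p = 0.0476). With the block within the code set there were 2 for dried ginger medium, 2 for Scutellariae low and 0 for Pinelliae between doses.

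Leaving out 1 library at a time gave, against vehicle from high to low dose, 0 to 1, 0 to 0 and 0 to 3 for Sayeok-tang, 0 to 0, 0 to 1 and 0 to 1 for Bojungikgi-tang, 0 to 3, 0 to 7 and 1 to 9 for fresh ginger, 3 to 6, 0 to 3 and 1 to 7 for dried ginger, 0 to 8, 0 to 1 and 0 to 3 for Pinelliae, and 5 to 11, 1 to 3 and 0 to 6 for Scutellariae. It gave 0 to 9 for Pinelliae and 3 to 11 for Scutellariae between doses, 2 to 16 for Scutellariae against Pinelliae, 0 to 9 for the interaction, 1 to 3 and 0 to 1 for Coptidis at 64 and 12.8 µg/mL and 0 to 1 for Zizyphi at 500 µg/mL. Signs reversed without the libraries that stand apart for MAD2L1 between Pinelliae doses (0.05), PTTG1 between Scutellariae doses (0.04), PLK1 in Scutellariae against Pinelliae (0.13) and, in the interaction, PLK1 (0.11, or 0.13 without Pinelliae high-dose replicate 2) and PTTG1 (0.04). Over single left-out libraries the first 3 ran from -0.47 to 0.05, from -0.51 to 0.04 and from -0.45 to 0.13, and PLK1 in the interaction from -0.44 to 0.13; the positive ends are those without Pinelliae high-dose replicate 2 (MAD2L1, PLK1) or Scutellariae low-dose replicate 3 (PTTG1). With 2 or 3 libraries a group, small differences of these genes were often not detectable.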
